A study of Mus with 6 samples.

Results

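The family of miR-148a, miR-148b and miR-152 was followed through small RNA libraries of mouse adipocytes. Its members are the rows of the deposited tables whose names begin with mmu-miR-148a-, mmu-miR-148b- or mmu-miR-152-, which gave 6 mature miRNAs of 929 known ones listed in all 6 tables. These are mmu-miR-148a-3p, mmu-miR-148a-5p, mmu-miR-148b-3p, mmu-miR-148b-5p, mmu-miR-152-3p and mmu-miR-152-5p, written below without the species prefix. All 6 members exceeded the floor of 3 counts in every library, and all 6 passed the filter on low counts.

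The samples were wild-type (WT) adipocytes of the strain C57BL/6, in 3 control libraries and 3 libraries of chronic intermittent hypoxia (CIH), repeated falls in oxygen that serve as a model of sleep apnoea. Both groups share genotype and strain. The age of the mice, and whether animals or isolated cells were exposed, the labels leave unsaid. The comparison asks how adipocyte miRNAs differ after CIH.

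A miRNA precursor is cut into a duplex of a 5p and a 3p strand. Usually one of them, the guide, is kept in the silencing complex, and the other, the passenger, is degraded. In this family the 3p strands are the usual guides. They share a seed, the stretch near the 5′ end that pairs with target mRNAs, so miR-148a-3p, miR-148b-3p and miR-152-3p can recognise overlapping sets of targets. The DNA methyltransferase DNMT1 is a well-known one. In the liver miR-148a is known for repressing the LDL receptor, and it has been reported to favour adipocyte differentiation by repressing Wnt1.

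Each strand pair has its own gene. On GRCm38, Mir148a lies on chromosome 6 (51269812 to 51269910), within the span of the predicted gene Gm38821. Mir148b lies on chromosome 15 (103285125 to 103285221), within Copz1. Mir152 lies on chromosome 11 (96850393 to 96850465), within Copz2. Copz1 and Copz2 encode paralogous zeta subunits of the COPI coat, which moves vesicles between Golgi and endoplasmic reticulum. No other miRNA gene of the RefSeq table lies within 65.2 kb of any of the 3, so none of them is part of a tight cluster.

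Values of 3 libraries are given below in the order of their numbers. Library totals ran from 6291101 to 11264151 counts. The libraries numbered 3 stood apart from the other 4 in both groups, and their tables list a different set of names, so results are given with and without them. Counting error was small: the fewest counts of a member, 241 for miR-148b-5p in control library 3, give an exact 95% Poisson interval of 12.8% either side of the value, and every other value is tighter. As a check of the label, miR-378a-3p, an abundant miRNA of fat tissue, stood at 25835 to 43593 CPM (the count relative to the total of its own library) in 5 libraries and at 5624 CPM in CIH library 3. Leukocyte markers summed to 0.266 to 4.29 CPM over all 6 libraries, with 4 of 4 listed and miR-142a-3p, miR-142a-5p and miR-223-3p at 0 in at least 1 library.

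miR-148a-3p was the main member in every library, and its level depended more on the library number than on the group. It took 5.53%, 4.69% and 49.4% of the controls and 3.0%, 2.81% and 24.9% of the CIH libraries (exact 95% binomial intervals no wider than 0.0682 percentage points). It ranked first among all miRNAs in both libraries numbered 3, and 4 or 5 in the others. With group in the model it was higher in the libraries numbered 3 by 3.60 on the log2 scale (SE 0.31), a 12.1-fold difference, with an adjusted p of 0.00256 (edgeR quasi-likelihood test, Benjamini-Hochberg). It was called in this direction in 9 of 9 settings, from 3.03 to 4.21. The library sets were drawn with earlier results of these data known. Tests between the sets thus describe the split and are not independent evidence for it.

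miR-152-3p was the next most abundant member, at 3244, 3149 and 2010 CPM in the controls and 1986, 1825 and 6168 CPM after CIH. CIH library 3 was the highest. Control libraries 1 and 2 lay above control library 3 and above CIH libraries 1 and 2. miR-148b-3p stood at 695, 697 and 2339 CPM in the controls and at 709, 844 and 1526 CPM after CIH. Both libraries numbered 3 were higher for it than the other 4. miR-152-3p exceeded miR-148b-3p in 5 of 6 libraries, the exception being control library 3. Their ranges over all libraries overlapped, and the difference in level was not tested. Mature miRNAs are all of about the same length, so these levels were not divided by it.

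Each 5p strand was less abundant than the 3p strand of its own precursor in every library. miR-148a-5p stood at 437, 429 and 817 CPM in the controls and at 211, 229 and 230.2 CPM after CIH, so the groups did not overlap. miR-152-5p did not overlap either, with 199.8, 176 and 364 CPM in the controls and 75.5, 113 and 155 CPM after CIH. miR-148b-5p stood at 112, 110.5 and 29.2 CPM in the controls and at 96.5, 106 and 45.2 CPM after CIH. It was the only member that was lower in both libraries numbered 3 than in all others. miR-148b-3p exceeded miR-148a-5p, the most abundant 5p strand, in 6 of 6 libraries, although their ranges overlapped. Neighbouring 5p strands overlapped in range as well, with miR-152-5p above miR-148b-5p in 5 of 6 libraries.

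**Figure D1:**
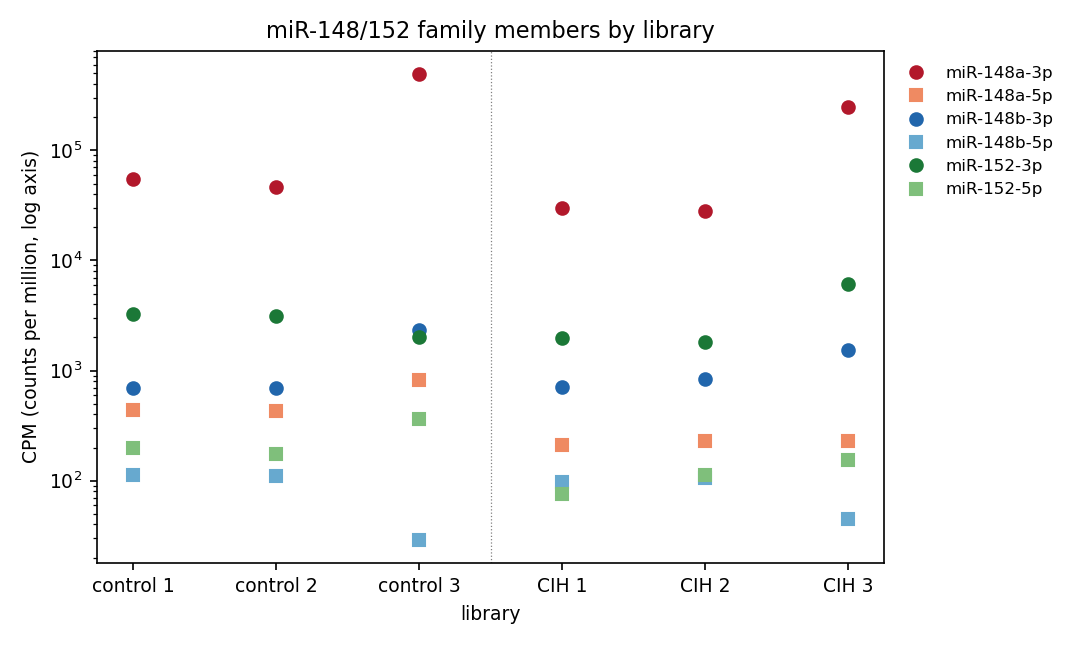
Level of each family member in CPM (log axis) in the 3 control and 3 CIH libraries, 1 point a library, with circles for 3p and squares for 5p strands. miR-148a-3p lies above all others in each library and is highest in the libraries numbered 3, while miR-148b-5p is lowest there.

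Between the library sets, 3 of 6 members were called with group in the model, where 25.0% of all 456 tested miRNAs were. Besides miR-148a-3p, miR-148b-3p was higher in the libraries numbered 3 by 1.82 (SE 0.45, adjusted p = 0.0294) and miR-148b-5p lower, at -1.18 (SE 0.31, adjusted p = 0.0359). Both miR-148b calls were lost with library totals as the scaling (adjusted p = 0.0539 and 0.0520) and when any of the 4 libraries numbered 1 and 2 was left out. The other members had differences of 0.96 for miR-148a-5p, 0.95 for miR-152-3p and 1.24 for miR-152-5p and were not called. miR-148a-3p and its passenger strand thus stood 3.60 and 0.96 higher in the same libraries, the second value falling to -0.021 without control library 3.

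This showed in the arm ratio, the count of the 3p strand divided by that of the 5p strand from the same precursor, which needs no scaling between libraries. For miR-148a it was 126, 109 and 604 in the controls and 142, 123 and 1082 after CIH. The miR-148b ratio was 6.18, 6.31 and 80.2 in the controls and 7.35, 7.98 and 33.8 after CIH. Both precursors thus had their highest ratios in the libraries numbered 3, in either group. For miR-152 the ratio was 16.2, 17.9 and 5.53 in the controls and 26.3, 16.2 and 39.7 after CIH, so that the libraries numbered 3 held both its lowest and its highest value.

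**Figure D2:**
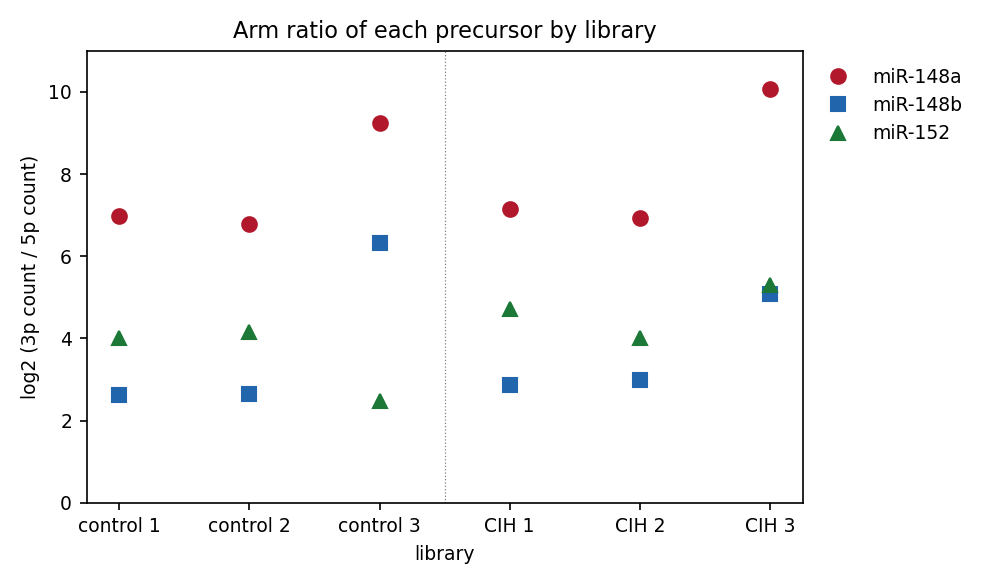
log2 of the ratio of 3p to 5p counts for each of the 3 precursors in the 6 libraries, 1 point a library. The miR-148a and miR-148b points rise in the libraries numbered 3 of both groups, while the miR-152 point is lowest in control library 3 and highest in CIH library 3.

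CIH against control, pooled over library numbers, showed no difference in arm ratio beyond the spread between libraries. The difference between the library sets is part of that spread. The mean log2 ratio was 7.66 ± 1.37 in control and 8.06 ± 1.76 in CIH for miR-148a (n = 3 each, SD; exact two-sided permutation p = 0.6), 3.87 ± 2.13 and 3.65 ± 1.24 for miR-148b (p = 1) and 3.55 ± 0.94 and 4.68 ± 0.65 for miR-152 (p = 0.3). Adjusted over the 9 ratios and shares tested, these are 0.9, 1 and 0.9, and 3 libraries against 3 cannot go below 0.1. By library number, the miR-148a log2 ratio was higher in CIH in each pair, by 0.17, 0.17 and 0.84. With control library 2 or CIH library 3 left out, the unpaired mean difference for miR-148a changed sign, to -0.054 and -0.62. The groups then differ in library set, so the set difference is part of these 2 values.

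Other precursors give a reference for these shifts. Among 41 precursors with at least 50 counts of both arms in every library, the log2 arm ratio moved between the library sets by 1.02 in the median, in either direction. The shift was 2.70 for miR-148a and 2.91 for miR-148b, toward the 3p strand in both. A shift at least as large was found in 5 and 4 of the 41 precursors, these included. miR-152 shifted by -0.34, and 33 of the 41 shifted as much or more. The precursors are not independent, and these ranks are descriptions without a test. Within the pair numbered 3, the miR-152 log2 ratio was 2.84 higher in CIH than in control, the largest difference among the 41 (median 0.84 in either direction). miR-148b went the other way in that pair, at -1.25.

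**Figure D3:**
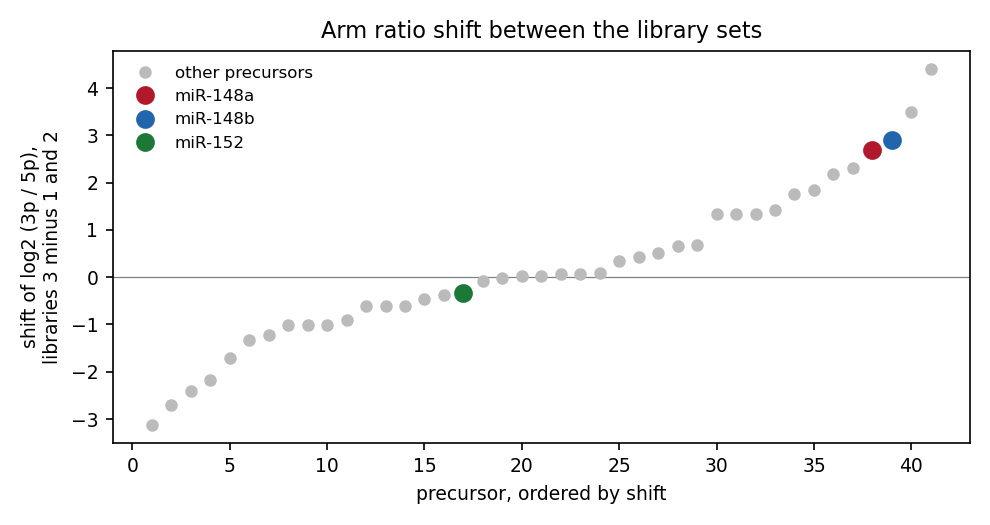
Shift of the log2 arm ratio from the libraries numbered 1 and 2 to those numbered 3, for 41 precursors ordered by shift. miR-148a (2.70) and miR-148b (2.91) lie near the upper end and miR-152 (-0.34) near 0.

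Among the guide strands, miR-148a-3p made up 93.3%, 92.4% and 99.1% in the controls and 91.8%, 91.3% and 97.0% after CIH (exact 95% binomial intervals no wider than 0.221 percentage points). miR-148b-3p took 1.17%, 1.37% and 0.470% of the guide strands in the controls and 2.17%, 2.74% and 0.594% after CIH. At each library number the miR-148a-3p share was lower in CIH (-1.60, -1.09 and -2.12 percentage points) and the miR-148b-3p share higher (1.0, 1.37 and 0.12 points). The share of miR-152-3p was 5.48%, 6.21% and 0.404% in the controls and 6.08%, 5.93% and 2.40% after CIH, with no common direction. Pooled over library numbers, where the difference between the library sets is part of the spread, two-sided exact permutation gave p = 0.5 for miR-148a-3p, 0.3 for miR-148b-3p and 0.7 for miR-152-3p, each 0.9 when adjusted. Paired by number, exact permutation gave p = 0.25 for miR-148a-3p and for miR-148b-3p, the smallest that 3 pairs allow, and 0.5 for miR-152-3p.

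**Figure D4:**
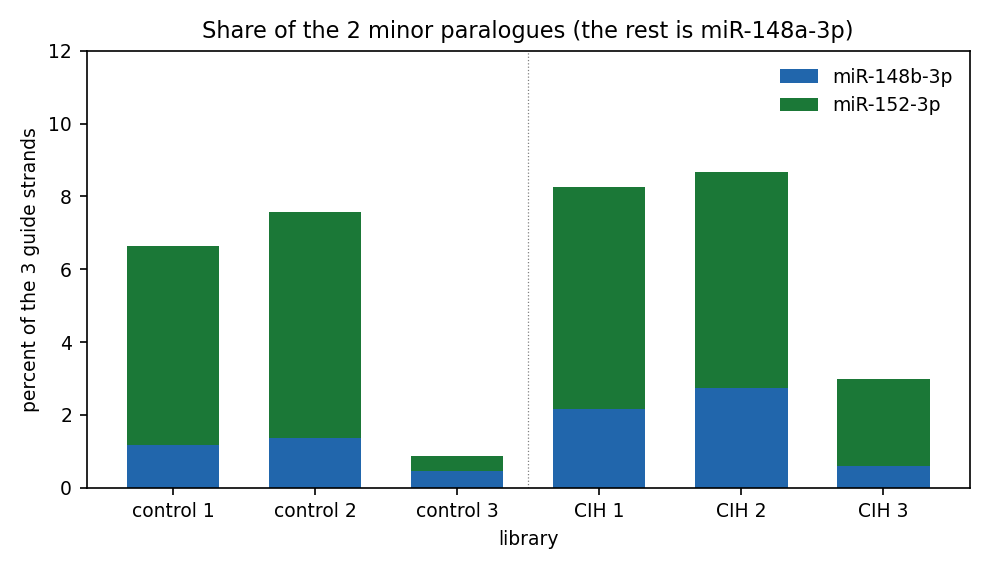
Percent of the summed guide strands that were miR-148b-3p and miR-152-3p in each library, stacked, with miR-148a-3p as the part not drawn. The miR-148b-3p part is larger in CIH than in control at each library number, and both parts are small in control library 3.

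Pooled over library numbers, no ratio between paralogues differed by CIH beyond the spread between libraries. The count ratio of miR-148a-3p to miR-148b-3p was 79.6, 67.3 and 211 in the controls and 42.3, 33.3 and 163 after CIH. It was lower in CIH at each number, by 0.91, 1.01 and 0.37 on the log2 scale. Pooled, the groups overlapped and the difference of -0.77 was within the spread (two-sided exact permutation p = 0.5, adjusted p = 0.9). Paired by library number, an exact permutation p of 0.25 is the smallest that 3 pairs allow. The ratio of miR-148b-3p to miR-152-3p was higher in CIH at numbers 1 and 2, by 0.74 and 1.06, and lower at number 3, at -2.23 (pooled -0.14, exact permutation p = 1).

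Over all 6 libraries, CIH against control gave no call in the family, and 0.0% of the 456 tested miRNAs were called (edgeR quasi-likelihood test, with 23 at an unadjusted p under 0.05; DESeq2 and limma-voom also called 0). miR-148a-5p had the smallest p of the family, with a mean of 561 ± 221.9 CPM for control and 224 ± 10.7 CPM for CIH (SD, n = 3 each) and a log2 change of -1.68 (SE 0.59, adjusted p = 0.833). miR-152-5p had means of 246 ± 102 CPM and 114.5 ± 40.0 CPM and a log2 change of -1.46 (SE 0.64, adjusted p = 0.833). These were the 2 of 6 members whose groups did not overlap, against 11.2% of all tested miRNAs. miR-148a-3p differed by -1.62 (SE 1.37), which became 1.11 without control library 3. Likewise miR-148b-3p, at -0.76 (SE 0.79), became 0.69 without that library. miR-148b-5p, at -0.015, and miR-152-3p, at 0.082, were near 0. Without CIH library 3 the value of miR-152-3p was -0.67 and that of miR-148b-5p 0.31. Where control or CIH library 3 is left out, the groups differ in library set, and the set difference is part of the values. The replicate block, with the library number as a term, gave 0 calls as well, with -1.04 (SE 0.34, adjusted p = 0.782) for miR-148a-3p.

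Within the libraries numbered 1 and 2, both strands of miR-148a fell. miR-148a-3p fell by 0.66 on the log2 scale (SE 0.21, 2 libraries per group; edgeR quasi-likelihood test, adjusted p = 0.0348), to 0.631 of control. Its passenger miR-148a-5p fell by 0.82 (SE 0.22, adjusted p = 0.0164), to 0.567 of control. These 2 of 6 members compare with 5.23% of the 459 tested miRNAs that fell and 9.37% called in either direction. Values for miR-152-3p and miR-152-5p were -0.60 (SE 0.20, adjusted p = 0.0618) and -0.81 (SE 0.27, adjusted p = 0.0528). With the replicate block miR-152-5p was called, at -0.87 (adjusted p = 0.00917). miR-148b-3p was at 0.32 (SE 0.22, adjusted p = 0.444), positive in all 13 settings tried and called in none. miR-148b-5p was at 0.017 (SE 0.26), with a sign that depended on the scaling (-0.14 with library totals). The CPM ranges of the groups were apart for 6 of 6 members here, as they were for 49.5% of all tested miRNAs.

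Both strands of miR-148a were lower in CIH in all 13 settings tried, from -0.85 to -0.57 for the 3p and from -1.01 to -0.63 for the 5p strand, and both were called in 9 of them. The calls were lost with a filter of 10 CPM on average, which left 0 members called (adjusted p = 0.0679 for each). Leaving out 1 of these 4 libraries leaves 1 library in its group, which is then assumed to vary like the 2 of the other group. In such fits the calls were lost without control library 1 (adjusted p = 0.167 for the 3p and 0.218 for the 5p strand), without control library 2 (0.0999 and 0.433) and without CIH library 1 (0.226 and 0.0683). Without CIH library 2 these strands, miR-152-3p (-0.66) and miR-152-5p (-1.28) were called. Of the fits on all 4 libraries, the same 4 members were called with DESeq2 size factors, with no filter on low counts and with miR-148a-3p kept out of the library total. The summed epithelial marker miRNAs, like miR-148a-3p, were lower in CIH at each library number. With 7 of 7 listed, they summed to 409, 334 and 76.3 CPM in the controls and 169.6, 126 and 18.6 CPM after CIH, with miR-141-3p and miR-429-3p at 0 in both libraries numbered 3. miR-205-5p, the largest of them, stood at 270, 253 and 67.8 CPM in the controls and 101, 75.2 and 1.86 CPM after CIH. At number 3 the other 4 that were detected were higher in CIH (such as miR-200b-3p, with 0.969 and 3.99 CPM), and miR-200b-3p was higher at number 2 too (13.8 and 15.7 CPM). Erythroid and leukocyte marker sums were lower in CIH at each library number too. The erythroid sum was 129, 48.6 and 8.35 CPM in the controls and 106, 44.1 and 3.28 CPM after CIH. The leukocyte sum did not exceed 4.29 CPM. The part of these 3 lists in the result was not tested. In such bulk samples, fewer cells of a type and less RNA per cell cannot be told apart.

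With 1 library on each side, the pair numbered 3 gives no estimate of spread. There the scaling matters: the median log2 difference of all tested miRNAs was 0.74 on library totals and 0.048 after TMM scaling. On library totals (CPM with 0.5 added), miR-148a-3p differed by -0.88, -0.74 and -0.99 at library numbers 1, 2 and 3, and by -1.79 at number 3 after TMM. miR-148a-5p differed by -1.05, -0.90 and -1.83 at numbers 1, 2 and 3, and by -2.63 at number 3 after TMM. Both strands were thus lower in CIH in each pair on library totals, and at number 3 after TMM as well. miR-152-5p was lower in each pair too, at -1.40, -0.64 and -1.22 on library totals.

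Its partner strand did not follow. miR-152-3p differed by -0.71 and -0.79 at numbers 1 and 2 but was higher in CIH at number 3, by 1.62 on library totals and 0.81 after TMM. Stromal marker miRNAs, with 5 of 5 listed and none at 0, differed in the same directions at each number. They summed to 16357, 13463 and 6501 CPM in the controls and 11168, 11112 and 68513 CPM after CIH. The summed endothelial markers had these directions too, at 137, 92.9 and 33.8 CPM in the controls and 104, 73.1 and 100.1 CPM after CIH. The part of either list in the miR-152-3p values was not tested. For miR-148b-3p the differences on library totals were 0.029 and 0.27 at numbers 1 and 2 and -0.62 at number 3. miR-148b-5p was higher at number 3 on library totals, by 0.62, and lower after TMM, at -0.17.

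**Figure D5:**
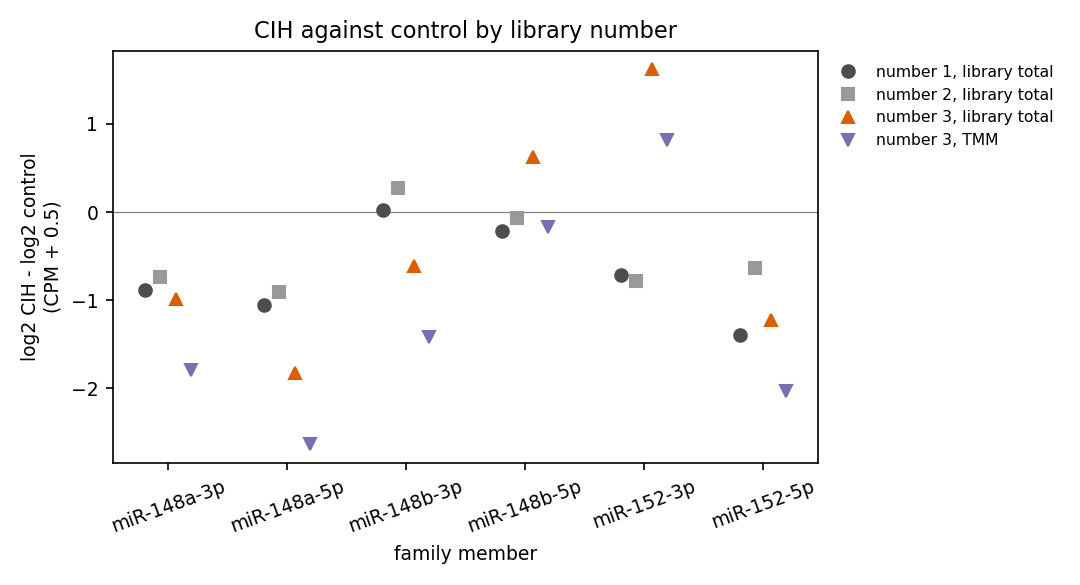
log2 difference of CIH and control at each library number for the 6 members (CPM with 0.5 added), on library totals and, for number 3, also after TMM scaling. Both strands of miR-148a and miR-152-5p lie below 0 at every number, while miR-152-3p lies below 0 at numbers 1 and 2 and above 0 at number 3.

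Tested as an interaction of group and library set, the CIH difference in the pair numbered 3 departed from that in the libraries numbered 1 and 2 for 5 of 6 members, where 30.3% of all tested miRNAs were called. With library totals as the scaling only miR-152-3p was called, at 2.36 (adjusted p = 0.000625, edgeR quasi-likelihood test). The spread in this fit comes from the libraries numbered 1 and 2 alone, so it compares these libraries and not the effect of CIH.

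Since miR-148a-3p took up to 49.4% of a library, its own amount lowers the CPM of every other miRNA. Without its counts in the total, control library 3 held 4619 CPM of miR-148b-3p and 3969 CPM of miR-152-3p, and CIH library 3 held 2032 and 8214 CPM. miR-148b-5p then stood at 57.6 and 60.2 CPM in that pair. For both of these guide strands the direction was that found on library totals, and for miR-148b-5p the difference became smaller than the counting error of control library 3.

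The miRNAs most like each guide strand over the 6 libraries were found by the root mean square difference of log2 levels (CPM with 0.5 added), each centred on its own mean, among 256 others with a mean of at least 10 CPM. Nearest to miR-148a-3p were miR-3081-3p (0.50), miR-30f (0.55) and miR-582-3p (0.67), against a median distance of 1.93. miR-148b-3p was nearest to miR-10b-5p (0.23), miR-106b-3p (0.24) and miR-28a-3p (0.29), with a median of 1.17. For miR-152-3p the nearest were miR-185-5p (0.18), miR-31-5p (0.19) and miR-145a-5p (0.20), with a median of 0.85. The paralogues were not among each other's 3 nearest: miR-148b-3p ranked 11 and miR-152-3p 58 by distance from miR-148a-3p. From miR-148b-3p, miR-148a-3p ranked 91 and miR-152-3p 72. From miR-152-3p, miR-148a-3p ranked 239 and miR-148b-3p 129.

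Other miRNAs reported to favour or oppose adipocyte differentiation, in lists chosen with earlier results of these data known, were read in the same fits. Over all 6 libraries 0 members of either list were called. Within the libraries numbered 1 and 2, 1 of 16 favouring miRNAs fell, a share near the 5.23% of all tested miRNAs that fell, and 0 rose, with a median log2 difference of -0.19 against -0.03 for all tested miRNAs. The one that fell was miR-210-3p, the classic target of hypoxia-inducible factor (-1.75, SE 0.24, adjusted p = 1.9e-05), and miR-17-5p was at 0.69 (SE 0.24, adjusted p = 0.0705). Of the opposing list 13 of 15 were tested, and 3 rose and 0 fell, where 4.14% of all tested miRNAs rose, with a median of -0.13. miR-221-3p, at 1.18 (SE 0.21, adjusted p = 0.000216), and miR-222-3p, at 1.14 (SE 0.22, adjusted p = 0.000723), which repress the cell cycle inhibitor p27, had the smallest p-values there. The third was miR-155-5p. miR-148a-3p itself, reported as favouring, is in neither list.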

How the data were processed

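Small RNA of mouse adipocytes was analysed from 6 deposited tables, 1 a library. The deposited values are whole-number counts per mature miRNA, although 3 headers say FPKM. GRCm38, DESeq 1.8.3 and featureCounts 1.5.0-p3 appear in the submitters' processing notes without a stated role. No source used here states the aligner or how a read matching more than 1 miRNA was counted, so counts of the closely similar family members are uncertain to that extent. The libraries numbered 3 list 1186 names and the others 1053. The 929 known names in both hold at least 99.97% of each library, and 0 columns belonged to another sample.

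Counts were tested in edgeR 4.0.16 (R 4.3.3; robust quasi-likelihood, TMM, filterByExpr, Benjamini-Hochberg at 0.05 over all miRNAs tested), with DESeq2 1.42.0 and limma 3.58.1 as alternatives. Fits took group alone over all 6 libraries or over the 4 numbered 1 and 2, group with library set, and their interaction. The fits of group alone were also run on simulated counts, without TMM scaling. The means of those counts held no difference between the library sets, and the other fits were not simulated. Ratios and shares were compared by two-sided exact permutation in Python 3.11.15 (numpy 2.4.6, pandas 2.3.3, scipy 1.17.1), with figures made in matplotlib 3.10.9. TMM factors over 6 libraries ran from 0.636 (control library 3) to 1.20. Positions come from the RefSeq table of GRCm38.

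Pairing was checked as the correlation, over 257 miRNAs, of each library's deviation from its group mean. Same-numbered libraries correlated at 0.35, 0.39 and 0.40, each above 0.1, and the numbers were used as pairs. The main fits leave the number out, and the replicate block is an alternative. Control library 1 and CIH library 2 correlated at 0.43, and within the libraries numbered 1 and 2 same-numbered libraries correlated at 0.18. Replicates differed by far more than counting noise. Separate animals or cultures are not named in the labels, so that the p-values reflect only the variation among these libraries, which may be technical. Molecular identifiers are not mentioned either, and intervals cover counting error only.

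Members, lists and the library sets were chosen with earlier results of these data known. Named besides the members were the 3 nearest profiles of each guide strand and, from each list, the 2 with the smallest p in the libraries numbered 1 and 2. Leukocyte, epithelial and stromal markers, miR-378a-3p, miR-205-5p, miR-200b-3p, miR-155-5p and the zeta subunit genes were named in addition. Marker lists for endothelium, erythroid cells, muscle, hepatocytes, pancreas and neurons were summed too. Their largest sums were 137, 129, 111, 5.59, 40.6 and 521 CPM.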

Additional observations from a re-analysis of the deposited data

Results flagged for a closer look

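For 5 of the 6 members the difference between CIH and control was not the same in the pair numbered 3 as in the libraries numbered 1 and 2, by a test of the interaction of group and library set (edgeR quasi-likelihood test, TMM scaling). The interaction was -1.13 for miR-148a-3p (adjusted p = 0.0148), -1.82 for miR-148a-5p (adjusted p = 0.000367), -1.74 for miR-148b-3p (adjusted p = 0.000653), 1.41 for miR-152-3p (adjusted p = 0.0025) and -1.22 for miR-152-5p (adjusted p = 0.0368), all on the log2 scale. Of all 456 miRNAs tested for this interaction, 30.3% were called, so such departures were not particular to the family. The pair numbered 3 holds 1 library per group and so adds nothing to the estimate of replicate variation. The adjusted p-values therefore do not cover how far a repeat of that pair would differ. On library totals the values were -0.17 (adjusted p = 0.732), -0.85 (0.102), -0.77 (0.142), 2.36 (0.000625) and -0.23 (0.715) in the same order, so that 1 of the 5 was still called. miR-152-3p was called in all 7 settings tried for this test, from 1.36 to 2.36.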

How the results depend on the processing

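Of the summary values recomputed under the alternatives, 114 counted as unchanged. For a count of calls this means within 1.5 times of the main count, and for a ratio or share the same sign. Their p-values were not compared. Another 29 counts moved by over 1.5 times and 12 ratios or shares changed sign. Causes of these changes were not tested. In the libraries numbered 1 and 2 (main counts: 43 calls in all, 2 in the family), the family's calls were 4 with DESeq2 size factors, with no filter and with miR-148a-3p kept out of the total. With a mean of at least 10 CPM there were 16 calls in all and 0 in the family. Leaving out any 1 of the 4 libraries moved this count by over 1.5 times, and gave 9 (without control library 2) to 97 (without CIH library 2) calls in all and 0 to 4 in the family. Between the library sets (114 calls, 3 in the family), library totals gave 60 and 1, and leaving out 1 library moved the count by over 1.5 times for each of the 6, to 2 (without control library 1 or CIH library 2) up to 253 (without control library 3) in all and 1 to 5 in the family. For the interaction (5 of the family), library totals gave 1 and totals without miR-148a-3p 3, and leaving out 1 library gave 3 to 4. The scalings by library totals, and leaving out libraries for the set difference and the interaction, were added after seeing the data.

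Over all 6 libraries miR-152-3p, at 0.082, became -0.13 with limma-voom, -0.085 with the 10 CPM filter and -0.14 with the replicate block. Leaving out 1 library gave -3.41 to 1.11 for miR-148a-3p, -1.14 to 0.69 for miR-148b-3p, -0.36 to 0.31 for miR-148b-5p and -0.67 to 0.45 for miR-152-3p. The groups then differ in library set, so the set difference is part of these values. In the libraries numbered 1 and 2 miR-148b-5p, at 0.017, became -0.14 with library totals, -0.00041 with DESeq2 size factors, -0.17 with totals without miR-148a-3p, -0.00042 in DESeq2, -0.017 with no filter, and -0.18 to 0.21 without 1 library. Its interaction, at -0.19, became 0.77 with library totals, 0.24 without miR-148a-3p in them, and -0.26 to 0.060 without 1 library. The set difference of miR-148a-5p ran from -0.021 to 1.85 without 1 library.

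In the libraries numbered 1 and 2 alone, the arm ratio of miR-148b was 0.29 higher in CIH on the log2 scale and the ratio of miR-148b-3p to miR-152-3p 0.90 higher. Leaving out 1 library gave -0.62 to 1.18 for the log2 arm ratio of miR-148a and -0.93 to 1.01 for that of miR-148b. For the share of guide strands it gave -3.42 to 0.48 percentage points for miR-148a-3p and -1.04 to 1.97 for miR-152-3p. The log2 ratio of miR-148a-3p to miR-152-3p ran from -1.62 to 0.41 and that of miR-148b-3p to miR-152-3p from -0.56 to 0.66. With 1 library left out the groups differ in library set, so the set difference is part of these ranges. The number of libraries, more than depth, limits these values. Counting error was below the spread between libraries for most members and close to it for miR-148a-5p in CIH. Apart from the call of miR-152-5p and the sign of miR-152-3p, the replicate block changed no call or direction of a member.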
